A study of Picea abies with 36 samples.

Results

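In Norway spruce (Picea abies) hypocotyls, 46 of 70736 gene models had more transcript after cytokinin and less transcript after auxin than in Mock. The members were chosen by their measured levels. CPM, the count of a gene scaled to a fixed total per library (counts per 1000000 reads), was averaged over the 9 BAP, the 9 IAA and the 9 Mock libraries, and 0.5 CPM was added to each mean. A member had a mean of at least 1 CPM under at least 1 of these treatments, a BAP level at least log2 1 above Mock and an IAA level at least log2 1 below Mock. Of the 34031 models at that level minimum, 1885 met the BAP condition and 2436 met the IAA condition. The mirrored choice, lower with BAP and higher with IAA, held 104 models. The BAP+IAA libraries took no part in the choice, so the combination is where the members were tested. The files do not pair the identifiers with gene names, and the members are therefore described by identifier and by behaviour, with no statement on function.

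BAP (6-benzylaminopurine) is a synthetic cytokinin, and IAA (indole-3-acetic acid) is the main natural auxin of plants. Cytokinins act through a phosphorelay from membrane histidine kinases to response regulators in the nucleus, while auxin acts by removing Aux/IAA repressors from auxin response factors. These hormones oppose each other in much of plant development, as known best from Arabidopsis, with cytokinin favouring shoots and auxin favouring roots, and conifer hypocotyls are a classical tissue for raising adventitious organs with either of them.

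Seedlings raised in a phytotron for about 2 weeks received lanolin on the mid-hypocotyl once, carrying BAP at 135 mM, IAA at 50 mM, both hormones at these concentrations, or a mock preparation, here Mock. Hypocotyls were taken 5, 10 and 15 days later and their RNA was sequenced, with 3 libraries for each of the 12 combinations of treatment and day, 36 libraries in all. The labels give no genotype or seed source. Nor do they tell whether replicate libraries stem from different seedlings, so a p-value reflects only how much libraries vary, and that variation may be technical. With no gene names, the tissue label was not checked against markers. In whole hypocotyls, fewer cells of a type and less RNA per cell cannot be told apart. The table marks the collection by a number, which was read as the order of the days, so statements on single days rest on that reading. Libraries held 12531117 to 22280720 reads in gene models, so that 3 reads in a library correspond to 0.135 to 0.239 CPM. Replicates differed by more than sampling noise in all 36 pairs within groups, with a chi-square per degree of freedom of 6.74 to 15.9 over genes with at least 10 reads in the pair.

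The members lay at moderate distances from Mock on both sides. These values chose the members and are a description. The log2 level over Mock with BAP ran from 1.01 to 4.61 with a median of 1.46, and with IAA from -2.95 to -1.01 with a median of -1.44. The difference between BAP and IAA ran from 2.11 to 6.59 with a median of 3.04, so a typical member had several times more transcript with cytokinin than with auxin. Just inside the limits the smallest BAP value was 1.01, and just outside the largest among models that met the IAA condition was 0.96. For IAA the corresponding values were -1.01 and -0.99. Between 0.9 and 1 for BAP lay 9 models that met the IAA condition, and between -1 and -0.9 for IAA lay 12 that met the BAP condition. With 0.1 CPM added in place of 0.5 CPM the choice held 92 models, all 46 members among them.

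The opposed levels were present on most single days. BAP was at least log2 1 above same-day Mock in 33 members at 5 days, 40 at 10 days and 39 at 15 days, where 3.69%, 5.67% and 7.43% of the 34031 models were. IAA was at least log2 1 below same-day Mock in 43, 41 and 31 members, against 11.6%, 8.72% and 5.96% of all models. Both held on all 3 days in 17 members, and in 45 they held together on at least 1 day. The median BAP value was 1.21 at 5 days, 1.65 at 10 days and 1.60 at 15 days, and the median IAA value was -1.88, -1.48 and -1.17 (log2 of level over same-day Mock). The distance with cytokinin was thus wider on the later days, and the distance with auxin was widest on the first. All 9 BAP libraries were above all 9 Mock libraries in 24 members (7.19% of all models), and all 9 IAA libraries were below all 9 Mock libraries in 28 members (10.3% of all models). These contrasts chose the members, and the shares are given only for scale.

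**Figure D1:**
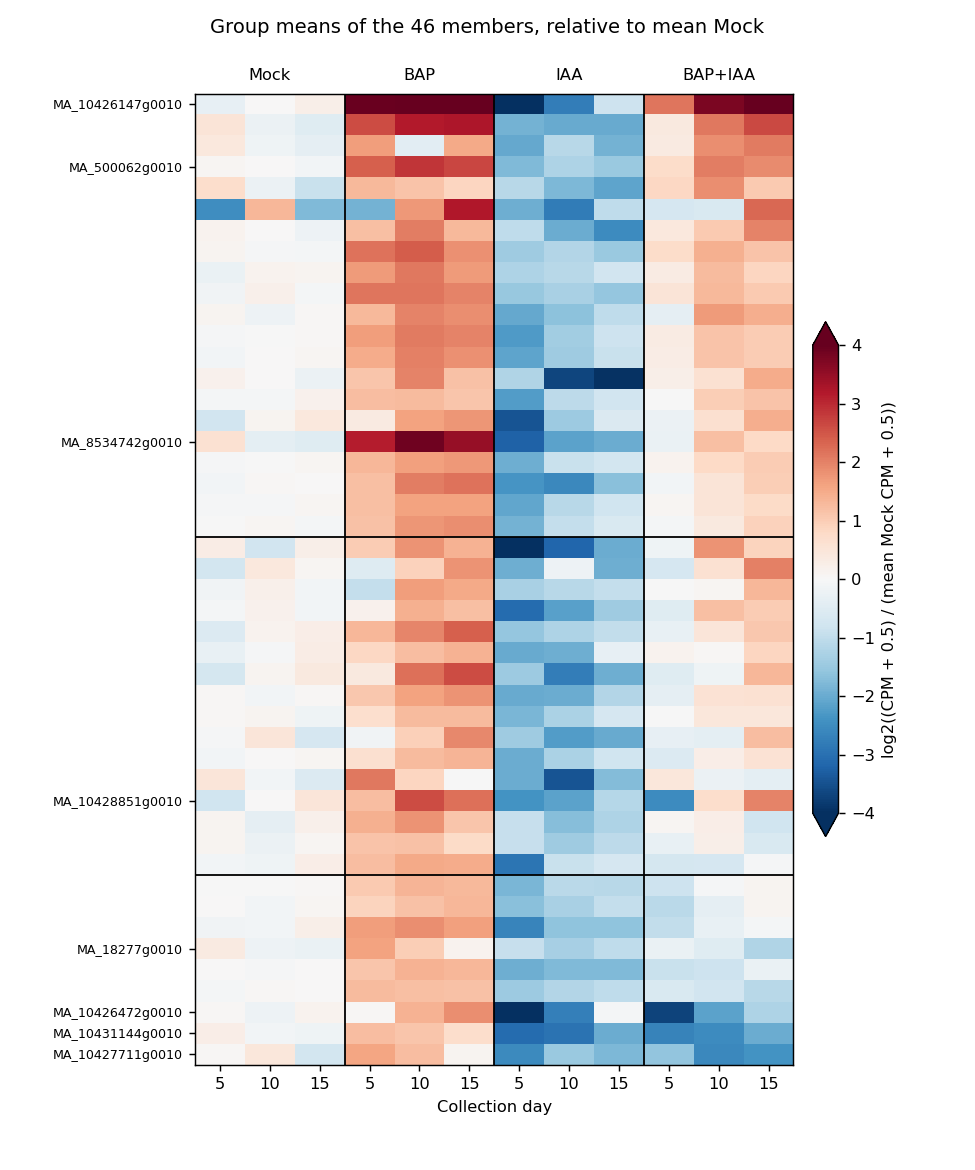
Mean level of each of the 46 members in the 12 groups, as log2 of CPM plus 0.5 over the same for the mean of all 9 Mock libraries (colour, held at -4 and 4). Rows are members, ordered by the change of BAP+IAA against Mock; the horizontal lines separate the 21 members called higher in the mean of the 3 days, the 16 not called and the 9 called lower, and the named members are labelled. BAP is mostly red and IAA blue by the choice of members, while BAP+IAA runs from dark red to dark blue and is paler at 5 days than later in most rows. The choice rested on means over the days, and a single BAP group can lie below mean Mock. MA_131224g0010, named after its values were seen, did so at 5 days (-1.89).

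Together the members took a small part of each library. Mock libraries gave them 0.105%, 0.124% and 0.0934% of the reads at 5 days. The same share was 0.0956%, 0.102% and 0.0985% at 10 days and 0.0952%, 0.136% and 0.095% at 15 days. All 9 Mock libraries thus lay between 0.0934% and 0.136%. In BAP they held 0.302%, 0.216% and 0.257%, then 0.463%, 0.357% and 0.375%, then 0.416%, 0.343% and 0.303%. In IAA they held 0.0245%, 0.0227% and 0.0209%, then 0.0264%, 0.0304% and 0.0285%, then 0.04%, 0.0396% and 0.0477%. No BAP library overlapped a Mock library and no IAA library did, which the choice of members favoured. In BAP+IAA, which chose no member, the share was 0.0979%, 0.114% and 0.102% on the first day, then 0.247%, 0.213% and 0.206%, then 0.203%, 0.222% and 0.249%. At 5 days the combination lay among the Mock libraries, and at 10 and 15 days every combination library was above every Mock library and below every BAP library of the same day.

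**Figure D2:**
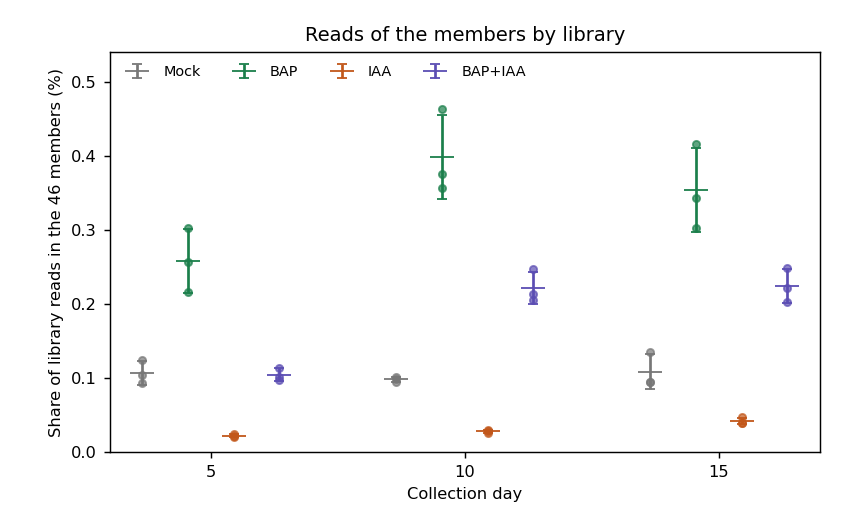
Share of the reads of each library, in percent, that fell in the 46 members, by collection day and treatment; points are libraries, wide ticks the mean of 3 and bars the SD. BAP+IAA was at 0.105% ± 0.00836 at 5 days beside Mock at 0.107% ± 0.0157, and at 0.222% ± 0.0218 and 0.224% ± 0.0231 on the later days, where Mock was at 0.0987% ± 0.00315 and 0.109% ± 0.0239 (SD, n = 3).

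A single gene model, MA_70145g0010, made up 22.3% of the members' summed CPM in Mock, 18.9% in BAP and 26.5% in BAP+IAA, and is named after its values were seen. Its levels were uneven between replicates. In BAP+IAA it was at 153, 262 and 207 CPM at 5 days, 833, 834 and 806 CPM at 10 days, and 244, 495 and 552 CPM at 15 days. In Mock it was at 262, 447 and 156 CPM, then 60.4, 173 and 182 CPM, then 205, 430 and 195 CPM. The combination overlapped Mock at 5 days and stood above it at 10 days, and at 15 days the lowest of its libraries was below the highest Mock library. The log2 change against Mock was 2.58 ± 0.84 (SE) at 10 days (adjusted p = 0.014), and neither the other days nor the mean of the 3 days passed (adjusted p = 0.66 at 5 days, 0.57 at 15 days and 0.093 in the mean). The call at 10 days was lost with 10-day Mock replicate 1 left out (2.21, adjusted p = 0.071), and the mean passed in a model of the BAP+IAA and Mock libraries alone (adjusted p = 0.0094). In BAP it ranged from 86.7 to 1025 CPM and in IAA from 0.359 to 70.5 CPM. Without this model the members' share in BAP+IAA was 0.0841% ± 0.00333, 0.139% ± 0.0208 and 0.181% ± 0.0107 on the 3 days (SD, n = 3). Mock then stood at 0.0787% ± 9.4e-04, 0.0848% ± 0.00464 and 0.0812% ± 0.0106 (SD, n = 3). Without MA_70145g0010 the mean share in the combination was thus slightly above that in Mock at 5 days too, which was not tested.

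The combination of BAP with IAA was compared with Mock to see on which side the members came to lie when both hormones were present. In the mean of the 3 days 21 members rose and 9 fell, while 16 did not pass the test (edgeR's quasi-likelihood test, Benjamini-Hochberg adjusted p under 0.05 over 38239 models, all 46 members among them). The combination moved much of the transcriptome, with 32% of all tested models higher and 30.5% lower, so that the members' count of rises was above that share and their count of falls below it. The log2 changes of the members had a median of 0.51, where that of all tested models was 0.02, and ran from -3.81 to 3.36. The same Mock libraries entered the choice of members and this comparison, so the 2 are not independent.

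The members' place relative to Mock depended on the day. At 5 days 3 members were higher and 11 lower, against 21.3% and 21.9% of all models, with a median log2 change of -0.06 (all models 0.00). The 3 higher members were MA_10426147g0010, MA_2603g0010 and MA_9190158g0010, and each of them was also higher at 10 and 15 days. At 10 days 16 were higher and 5 lower, against 22.8% and 21.3%, with a median of 0.53 (all models 0.01). At 15 days 22 were higher and 5 lower, against 22.9% and 21.1%, with a median of 0.92 (all models 0.02). The share of members above Mock was therefore under that of all models at 5 days and over it at 10 and 15 days. The share of members below Mock was near that of all models at 5 days and under it at 10 and 15 days. Between the first and the last day 17 members went from not called to higher and 5 from lower to not called. MA_129542g0010 and MA_8534742g0010 went from lower to higher. Such shifts of call are not a test of a difference between days. The direct test of that difference, given below, called 11 members. Lower on all 3 days were MA_10426472g0010, MA_10427711g0010 and MA_10431144g0010. MA_1638g0010 and MA_619336g0010 were the other members lower at 10 days, and MA_1638g0010 and MA_18277g0010 the others lower at 15 days. No call was made on any single day for 11 members. MA_2603g0010, MA_9190158g0010, MA_129542g0010, MA_1638g0010 and MA_619336g0010 are named after their values were seen.

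The calls at 5 days were the least stable. The 3 higher calls became 6 when 1 of these was left out: 10-day BAP+IAA replicate 1 or 2, 15-day BAP+IAA replicate 1 or 3, or 15-day Mock replicate 1. They became 5 when 5-day BAP+IAA replicate 3, 10-day Mock replicate 1, or 15-day Mock replicate 2 or 3 was left out. The 11 lower calls became 6 with 5-day BAP+IAA replicate 2 or 3 left out and 7 with 5-day Mock replicate 1 left out. The 5 lower calls at 10 days became 3 with 10-day BAP+IAA replicate 3 left out. The call of MA_9190158g0010 at 5 days was lost with 5-day BAP+IAA replicate 1 or 5-day Mock replicate 1 or 2 left out (adjusted p = 0.16, 0.064 and 0.084). The fall of MA_129542g0010 at 5 days was lost with 5-day BAP+IAA replicate 2 or 3 or 5-day Mock replicate 1 left out, and its rise at 15 days with 15-day BAP+IAA replicate 1 or 15-day Mock replicate 3 left out (adjusted p = 0.09 to 0.2). At 10 days MA_1638g0010 lost its call with 10-day BAP+IAA replicate 3 or 10-day Mock replicate 3 left out (adjusted p = 0.13 and 0.12). MA_619336g0010 at 10 days passed narrowly, at an adjusted p of 0.049, and was lost in 10 of the 18 models with 1 library left out and in 3 of the 6 other alternatives.

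**Figure D3:**
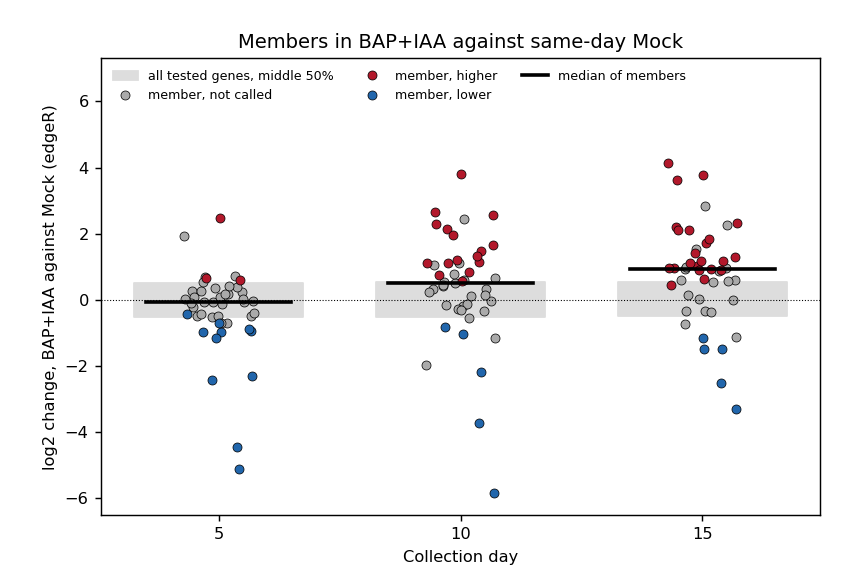
Log2 change of each of the 46 members in BAP+IAA against same-day Mock (edgeR), by collection day; red and blue points passed the test as higher and lower, grey points did not, black bars are the members' medians and grey boxes the range between the quartiles of all 38239 tested models. The medians stand at -0.06, 0.53 and 0.92, the boxes reach from -0.52 to 0.51, -0.51 to 0.53 and -0.48 to 0.53, and 3 members stay far below 0 on all 3 days.

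The rise with both hormones was largest in MA_10426147g0010, which was also the member with the widest distance between BAP and IAA (log2 4.61 and -1.98 against Mock). Mock libraries had 9.36, 8.63 and 9.43 CPM at 5 days, 6.66, 11.7 and 17 CPM at 10 days, and 10.4, 21.3 and 9.42 CPM at 15 days. Combination libraries had 57.5, 48.1 and 51.3 CPM, then 244, 104 and 147 CPM, then 252, 165 and 165 CPM. Every combination library was above every Mock library. The log2 change was 2.49 ± 0.38 (SE) at 5 days, 3.80 ± 0.39 at 10 days and 3.78 ± 0.39 at 15 days (edgeR adjusted p = 6.3e-06, 1.2e-08 and 1.2e-08). BAP alone ranged from 155 to 400 CPM and IAA alone from 0.0702 to 10.5 CPM, and at 5 and 10 days every combination library was below every library with cytokinin alone.

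MA_500062g0010 had the next largest rise among the members called with 1 sign on all days. Its Mock libraries had 2.7, 5.12 and 4.21 CPM at 5 days, 2.71, 4.5 and 4.36 CPM at 10 days, and 3.67, 2.56 and 4.19 CPM at 15 days. The combination had 8.25, 7.16 and 4.25 CPM, then 18.6, 16.8 and 16.3 CPM, then 18.7, 15.8 and 11.4 CPM. The groups overlapped at 5 days and were apart on the later days. The log2 change was 0.68 ± 0.28 (SE) at 5 days, 2.15 ± 0.28 at 10 days and 2.11 ± 0.28 at 15 days (edgeR adjusted p = 0.052, 3.0e-07 and 5.3e-07). The change at 5 days lay at the threshold and passed in 5 of the 6 other alternatives, with DESeq2 at an adjusted p of 0.037, and in 10 of the 18 models with 1 library left out. BAP alone ranged from 16 to 34.4 CPM and IAA alone from 0.587 to 2.07 CPM.

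MA_8534742g0010, the member with the second widest distance between BAP and IAA (log2 3.54 and -2.35 against Mock), changed sides. Mock had 16.9, 12.6 and 11.4 CPM at 5 days, 3.72, 6.96 and 9.01 CPM at 10 days, and 8.92, 4.94 and 4.64 CPM at 15 days. The combination had 9.96, 7.1 and 4.61 CPM, then 19.3, 28.3 and 14.7 CPM, then 16.1, 16.3 and 14.5 CPM. All 3 combination libraries were below all 3 Mock libraries at 5 days and above them on both later days. The log2 change was -0.95 ± 0.32 (SE) at 5 days, 1.65 ± 0.32 at 10 days and 1.30 ± 0.32 at 15 days (edgeR adjusted p = 0.017, 1.2e-04 and 0.0017). The fall at 5 days was lost with 5-day BAP+IAA replicate 2 or 3 or 5-day Mock replicate 1 left out (adjusted p = 0.054, 0.13 and 0.089). Its Mock level went the other way over time, by a log2 of -1.14 ± 0.32 from 5 to 15 days, without passing the test in edgeR (adjusted p = 0.068), though it passed in DESeq2 (adjusted p = 0.018) and with 10-day or 15-day Mock replicate 1 left out (adjusted p = 0.049 and 0.032). BAP alone ranged from 64.5 to 166 CPM and IAA alone from 0.351 to 2.63 CPM.

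Of the members with 1 sign on all days, MA_10427711g0010 and MA_10431144g0010 fell most with both hormones. MA_10427711g0010 had 3.03, 4.13 and 1.96 CPM in Mock at 5 days, 2.4, 4.22 and 5.87 CPM at 10 days, and 2.69, 1.44 and 0.598 CPM at 15 days. With both hormones it had 1.09, 0.628 and 0.205 CPM, then 0.153, 0.0601 and 0 CPM, then 0.125, 0.213 and 0.143 CPM. Every combination library was below every Mock library of its day. At 10 days 3 reads over the combination libraries stood against 196 over Mock, a ratio of levels of 0.0149 (exact binomial 95% interval 0.00305 to 0.0443, counting error only). Averaged over days, its log2 change was -3.81 ± 0.38 (SE; edgeR adjusted p = 8.3e-10). BAP alone ranged from 2.76 to 11.6 CPM and IAA alone from 0 to 1.26 CPM, and the order of the combination and IAA group means changed with the day. At 5 days the combination had 0.641 ± 0.443 CPM beside 0.0877 ± 0.115 CPM with IAA, at 10 days 0.0712 ± 0.0773 beside 0.737 ± 0.477 CPM, and at 15 days 0.16 ± 0.0467 beside 0.483 ± 0.0862 CPM (SD, n = 3). These means rest on few reads, with 30, 3 and 7 in the combination groups and 4, 38 and 24 in the IAA groups. The libraries of the 2 treatments overlapped at 5 days, and the order was not tested.

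MA_10431144g0010 had 7.52, 2.37 and 4.6 CPM in Mock at 5 days, 4.18, 3.8 and 2.91 CPM at 10 days, and 2.81, 3.88 and 3.81 CPM at 15 days. The combination had 0.136, 0.188 and 0.308 CPM, then 0.614, 0.12 and 0.121 CPM, then 0.187, 0.426 and 1.29 CPM. Every combination library was below every Mock library. The log2 change was -4.45 ± 0.65 (SE) at 5 days, -3.72 ± 0.65 at 10 days and -2.51 ± 0.58 at 15 days (edgeR adjusted p = 2.6e-06, 3.2e-05 and 7.7e-04). BAP alone ranged from 3.23 to 12.8 CPM and IAA alone from 0 to 1.04 CPM. Most combination and IAA libraries held only a few reads of it. Every combination library was above every IAA library at 5 days, with 11 against 2 reads per group. The same held at 10 days, with 12 against 4 reads, although single libraries of both treatments then held 2 reads. At 15 days the libraries overlapped, and the order was not tested.

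**Figure D4:**
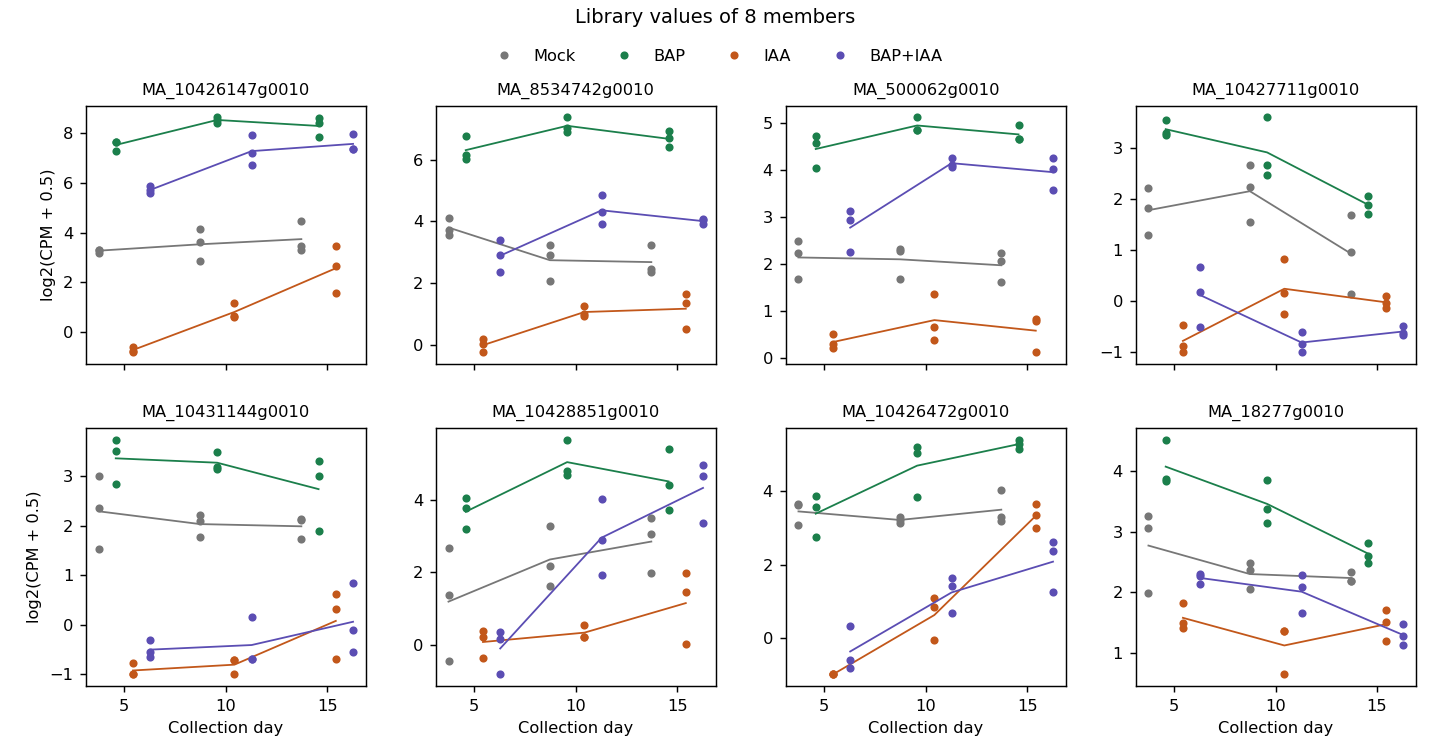
Levels of 8 members as log2 of CPM plus 0.5 in each library (points), by collection day and treatment; lines join the means of the 3 log2 values. In MA_10426147g0010, MA_8534742g0010 and MA_500062g0010 the combination is nearer to BAP at 10 and 15 days than at 5 days, in MA_10427711g0010 and MA_10431144g0010 it is below Mock on every day, and in MA_10428851g0010 it goes from the level of IAA at 5 days to that of BAP at 15 days.

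The change over time within BAP+IAA is free of the choice of members, since no combination library entered it. From 5 to 15 days 25 members rose and 1 fell, where 10.7% and 10.2% of all tested models did. The median log2 change was 1.08 against 0.02 for all models, with a range from -1.93 to 5.38, and 40 of the 46 were above 0. In 31 members every combination library at 15 days was above every one at 5 days, as in 19.7% of all tested models. Most of the difference came before 10 days, with a median log2 change in level of 0.72 from 5 to 10 days and 0.22 from 10 to 15 days. The member that fell was MA_18277g0010. Without replicate 3 of BAP+IAA at 5 days, 3 members were called as falling.

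In Mock few members passed the same test. From 5 to 15 days no member rose, beside 1.07% of all models, and 1 fell, MA_18461g0010, beside 0.617% (log2 change -1.80 ± 0.43 SE, edgeR adjusted p = 0.027). This member is named after its values were seen, and its call was lost with 15-day Mock replicate 2 or 3 or 5-day Mock replicate 1 left out. With 10-day Mock replicate 1, 15-day Mock replicate 1 or 5-day Mock replicate 3 left out, 2 falls were called. At an unadjusted p under 0.05 edgeR had 2 members higher and 5 lower, and DESeq2 called 0 higher and 2 lower. No share of all models was worked out for these settings, so the counts are not read as a trait of the members. The members' median log2 change in Mock was 0.06.

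The effect of the combination, taken as BAP+IAA against same-day Mock, had a higher log2 value at 15 than at 5 days in 11 members and a lower one in none, where 2.75% and 3% of all tested models differed in these directions (test of the difference of differences in edgeR). DESeq2 called 13 higher and none lower, and at an unadjusted p under 0.05 edgeR had 25 higher and 0 lower. The share of all models was not worked out for either of these settings. These counts therefore cannot be set beside the shares above. A higher value here is signed, and in MA_10426472g0010 it was a smaller fall, from -5.11 at 5 days to -1.49 at 15 days. The median difference was 0.91 on the log2 scale against 0.01 for all models, and 41 of the 46 were above 0. Of the 11 members, 10 also rose over time within the combination. The other was MA_18461g0010, with a difference of 2.01 ± 0.58 (SE, edgeR adjusted p = 0.036). Its log2 change from 5 to 15 days was 0.21 ± 0.39 in the combination (adjusted p = 0.75) and -1.80 ± 0.43 in Mock. The 11 calls became 7 with 15-day Mock replicate 1 or 5-day Mock replicate 3 left out. For MA_8534742g0010 the difference was 2.25 ± 0.45 (SE, adjusted p = 0.0025) and for MA_500062g0010 1.42 ± 0.40 (adjusted p = 0.029). The latter was lost with 15-day BAP+IAA replicate 1 or 2, 5-day BAP+IAA replicate 3, 15-day Mock replicate 1 or 2, or 5-day Mock replicate 2 or 3 left out (adjusted p = 0.056 to 0.11). For MA_10426147g0010 it was 1.29 ± 0.51 and did not pass (adjusted p = 0.16).

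**Figure D5:**
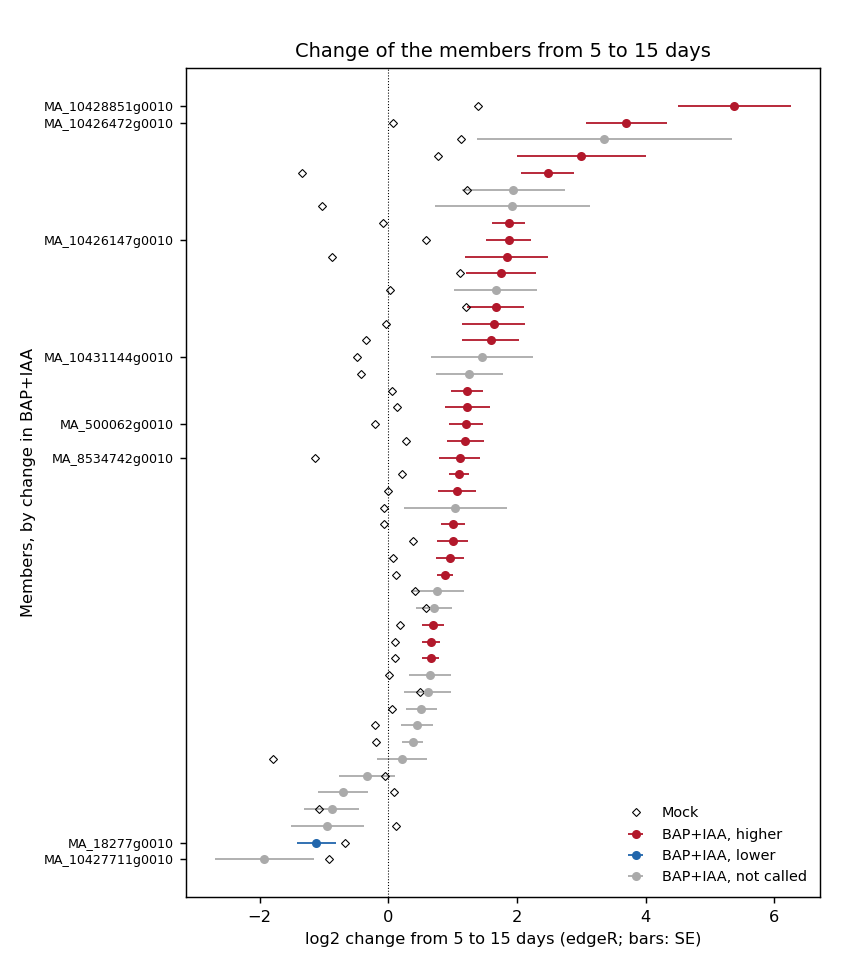
Log2 change of each of the 46 members from 5 to 15 days in BAP+IAA (points, bars SE, edgeR) and in Mock (diamonds), ordered by the change in BAP+IAA; red and blue points passed the test as higher and lower, grey points did not. The points lie to the right of 0 in 40 members with a median of 1.08, while the diamonds scatter around 0 with a median of 0.06.

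The largest rise over time with both hormones was that of MA_10428851g0010. The combination had 0.0682, 0.628 and 0.769 CPM at 5 days, 6.98, 15.9 and 3.34 CPM at 10 days, and 24.8, 9.88 and 30.7 CPM at 15 days. Mock had 5.87, 0.229 and 2.08 CPM, then 9.22, 4.01 and 2.57 CPM, then 3.48, 7.88 and 10.8 CPM. All 15-day combination libraries were above all 5-day ones, but combination and Mock libraries overlapped on every day. The log2 change from 5 to 15 days was 5.38 ± 0.88 (SE) with both hormones (edgeR adjusted p = 8.7e-05) and 1.40 ± 0.73 in Mock (adjusted p = 0.39), and the effect differed between these days by 3.98 ± 1.16 (adjusted p = 0.041). Against Mock the change was -2.43 ± 0.96 at 5 days (adjusted p = 0.043) and 1.54 ± 0.66 at 15 days (adjusted p = 0.06). These calls against Mock were fragile. With 5-day Mock replicate 1 left out, the value at 5 days was -1.29 (adjusted p = 0.38) and the difference between days 2.83 (adjusted p = 0.24). The call at 5 days was also lost in 6 other models with 1 library left out (5-day BAP+IAA replicate 1, 2 or 3, 10-day or 15-day BAP+IAA replicate 1, 5-day Mock replicate 3). The difference between days was lost in 11 of 18, and it stayed only with 1 of these left out: 10-day BAP+IAA replicate 2 or 3, 15-day BAP+IAA replicate 2, 5-day Mock replicate 2, 10-day Mock replicate 1 or 3, or 15-day Mock replicate 3. Neither passed without the filter or in a model of the BAP+IAA and Mock libraries alone. The change at 15 days passed with 15-day BAP+IAA replicate 2 or 5-day Mock replicate 1 or 2 left out (adjusted p = 0.033, 0.046 and 0.043). At 5 days the combination, at 0.488 ± 0.371 CPM, lay with IAA alone, at 0.581 ± 0.271 CPM, and at 15 days, at 21.8 ± 10.7 CPM, with BAP alone, at 25.1 ± 15 CPM (SD, n = 3).

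MA_10426472g0010 was lower than Mock on every day and drew nearer to it. The combination had 0.75, 0.0628 and 0.154 CPM at 5 days, 2.61, 2.16 and 1.09 CPM at 10 days, and 5.68, 4.69 and 1.86 CPM at 15 days. Mock had 12.2, 11.8 and 7.92 CPM, then 8.83, 8.36 and 9.29 CPM, then 9.28, 15.8 and 8.6 CPM. Every combination library was below every Mock library of its day. The log2 change against Mock was -5.11 ± 0.59 (SE), -2.18 ± 0.46 and -1.49 ± 0.42 on the 3 days (edgeR adjusted p = 1.5e-07, 4.0e-04 and 0.0058), and the effect differed between 15 and 5 days by 3.62 ± 0.76 (adjusted p = 0.0043). IAA alone gave no read at 5 days, which puts it at least 175-fold below Mock by a floor of 3 counts over the group, then 0.466, 1.61 and 1.29 CPM, then 7.54, 9.68 and 12 CPM. With auxin alone the libraries thus overlapped those of Mock at 15 days, when those of the combination did not. With BAP alone this member had 11.3, 6.21 and 14.1 CPM at 5 days, overlapping the Mock libraries, and 38.9, 35.4 and 42 CPM at 15 days, above them.

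MA_18277g0010 was the member that fell over time with both hormones. The combination had 4.43, 3.9 and 4.31 CPM at 5 days, 3.76, 2.64 and 4.37 CPM at 10 days, and 1.69, 2.27 and 1.93 CPM at 15 days. Mock had 9.03, 7.87 and 3.48 CPM, then 5.11, 4.64 and 3.64 CPM, then 4.03, 4.56 and 4.04 CPM. The groups overlapped at 5 and 10 days and were apart at 15 days. Against Mock the log2 change was -0.70 ± 0.28 (SE) at 5 days (edgeR adjusted p = 0.042), which passed narrowly. It was -0.30 ± 0.29 at 10 days (adjusted p = 0.43) and -1.14 ± 0.30 at 15 days (adjusted p = 0.003). The log2 change from 5 to 15 days was -1.12 ± 0.30 (SE) with both hormones (edgeR adjusted p = 0.0081) and -0.68 ± 0.28 in Mock (adjusted p = 0.24, or 0.045 with 5-day Mock replicate 3 left out), and the difference between these, -0.44 ± 0.41, did not pass (adjusted p = 0.64). BAP alone also declined in level, from 14.1, 13.8 and 22.4 CPM at 5 days to 6.55, 5.08 and 5.58 CPM at 15 days.

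Set between the single hormones on a log2 scale, the combination lay nearer to BAP in most members. Because BAP and IAA levels chose the members, what follows is description without a test. The mean combination level was between those of IAA and BAP in 41 members, above BAP in 3 and below IAA in 2. The 3 above BAP were MA_15415g0010, MA_18461g0010 and MA_65940g0010, named after their values were seen, with 3.52, 10.8 and 5.88 CPM in the combination beside 3.42, 9.32 and 4.26 CPM with BAP. At 5 days the group means of all 3 were below BAP, and that of MA_15415g0010 also at 10 days. The 2 below IAA were MA_10426472g0010 and MA_10427711g0010, neither of them on every day. By group means MA_10426472g0010 was below IAA at 15 days only, at 4.08 CPM beside 9.74 CPM, and MA_10427711g0010 at 10 and 15 days. On a log2 scale where 0 is the IAA level and 1 the BAP level, the median member stood at 0.67, the quartiles at 0.45 and 0.78. By day the median was 0.59, 0.65 and 0.69, and 14, 13 and 11 members were nearer to IAA than to BAP. As a share of the same-day BAP level the combination reached a median of 36.4% at 5 days, 44.7% at 10 days and 55% at 15 days. It stayed under 50% in 34, 30 and 17 members. In CPM, a level under 50% of BAP is nearer to IAA than to BAP. At 5 and 10 days most members were thus nearer to IAA in CPM, and the nearer side depended on the scale.

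Levels over time within each treatment are given as log2 of CPM plus 0.5, an offset that understates changes of low levels such as those with IAA. From 5 to 15 days the median log2 change in level was 0.38 with BAP, with 32 members up and 14 down, and 0.73 with IAA, with 34 up and 11 down. With the combination it was 1.03, with 40 up and 6 down, and in Mock 0.06, with 26 up and 20 down. The highest group mean fell on 15 days in 28 members with the combination and 30 with IAA, while with BAP it fell on 10 days in 21 and on 15 days in 17. The lowest fell on 5 days in 38 members with the combination, 32 with BAP, 32 with IAA and 19 in Mock.

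The 21 members that rose in the mean of the 3 days had a median BAP value of log2 1.79 over Mock, against 1.22 in the 9 that fell and 1.21 in the 16 not called. Their median IAA values were close to each other, at -1.48, -1.38 and -1.27. All these contrasts share the Mock libraries, so the values are set side by side and no relation is drawn from them. The median log2 change from 5 to 15 days in the combination was 1.20 in those that rose, 0.96 in those that fell and 1.08 in those not called, with 15, 4 and 6 members called as rising. Their place between IAA and BAP had medians of 0.73, 0.23 and 0.65.

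The day on which BAP alone reached its highest mean divided the members differently. It was 5 days in 8 members, 10 days in 21 and 15 days in 17. The 25 members that rose from 5 to 15 days with both hormones were 12 of those with the BAP maximum at 10 days and 13 of those with it at 15 days, and the member that fell was among the 8 with it at 5 days. The median log2 change over that time with both hormones was -0.25, 1.04 and 1.23 in the 3 sets. The split used BAP libraries only and was made with results of these data known, so the difference between the sets was not tested.

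The part of the identifier before the letter g was shared by 2 members, MA_10431284g0010 and MA_10431284g0020, and 3 of the 46 (6.52%) shared it with any tested model, as did 12% of all tested models. This pair is named after its values were seen. With both hormones MA_10431284g0010 had 36.6 ± 2.77, 65.7 ± 3.94 and 59.1 ± 3.9 CPM on the 3 days, beside 28.4 ± 1.77, 28.8 ± 4.17 and 30.6 ± 5.6 CPM in Mock (SD, n = 3). MA_10431284g0020 had 2.38 ± 0.717, 5.03 ± 0.386 and 3.67 ± 0.619 CPM, beside 1.42 ± 0.372, 2.01 ± 0.941 and 1.97 ± 0.565 CPM in Mock (SD, n = 3). In both the combination was highest at 10 days. Reads shared between the pair by the authors' counting cannot be told apart from separate transcripts.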

How the data were processed

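The authors deposited whole-number read counts, without normalisation. The submitters' processing notes name Trimmomatic, STAR and HTSeq and no versions. Build, annotation and strandedness were not given in the sources used here, so reads of overlapping or antisense models, or of near-identical paralogs, cannot be told apart. Members and levels rest on CPM from column sums. Tests used edgeR 4.0.16 with limma 3.58.1 under R 4.3.3. Its filterByExpr left 38239 models, TMM factors ran from 0.94 to 1.07, and 1 robust quasi-likelihood model with 12 group means (24 residual degrees of freedom) was fitted to all 36 libraries, with 2-sided tests and Benjamini-Hochberg adjustment at 0.05 over all models. An SE is the log2 change divided by the square root of F. The model was also run on simulated data, and no result given here rests on that run.

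All 46 members average at least 1 CPM over the libraries and could be named. Named were the 2 with the widest difference between BAP and IAA, the 2 largest rises and 2 largest falls in BAP+IAA against Mock among calls of 1 sign on all days, and the 2 largest rises and the largest falls from 5 to 15 days in BAP+IAA, of which there was 1. This gave 8 models. Members, lists and the naming rule were chosen with earlier results of these data known. Alternatives were DESeq2 1.42.0, RLE factors, total counts, no filter, the BAP+IAA and Mock libraries alone, a replicate block, each of the 18 BAP+IAA and Mock libraries left out, and other settings of the choice. BAP and IAA libraries were left out only in the choice, not in the tests.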

Additional observations from a re-analysis of the deposited data

Results flagged for a closer look

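The effect of BAP+IAA against Mock differed between 5 and 15 days in 11 members, all with a higher signed log2 value at 15 days, by edgeR's test of the difference itself. Of the named members, the log2 difference was 2.25 for MA_8534742g0010, 1.42 for MA_500062g0010, 3.98 for MA_10428851g0010 and 3.62 for MA_10426472g0010 (adjusted p = 0.0025, 0.029, 0.041 and 0.0043). With 1 library left out, the call for MA_500062g0010 was lost in 7 of 18 models and that for MA_10428851g0010 in 11 of 18. The Mock libraries of MA_10428851g0010 ranged from 0.229 to 5.87 CPM at 5 days.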

How the results depend on the processing

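For 15 single members 54 changes in BAP+IAA or Mock were recomputed. None changed its direction under any alternative run, and 38 kept their side of the threshold under every one. The members higher than Mock at 5 days, 3 in the model as reported, were 5 with DESeq2, RLE size factors, total counts or no filter, 6 with the BAP+IAA and Mock libraries alone, and 2 to 6 with 1 library left out. Those lower at 5 days (11) were 6 to 11 with 1 library left out, and those lower at 10 days (5) were 3 to 6. The single fall from 5 to 15 days was 2 with DESeq2 both in BAP+IAA and in Mock, and with 1 library left out 1 to 3 in BAP+IAA and 0 to 2 in Mock. The 11 calls of a higher effect value at 15 than at 5 days were 7 to 11 with 1 library left out, and 5 of these 11 members were called in all 18 such fits. The 25 rises from 5 to 15 days in BAP+IAA were 18 to 26, 17 of them called in all 18. The choice itself held 92 models with 0.1 CPM added, 36 with 1 CPM, 40 with TMM-scaled CPM, 47 with medians (32 shared) and 40 to 55 with 1 library left out; 34 members were chosen in all 27 such choices. A replicate block gave 21 rises and 10 falls in the mean of the 3 days and 12 calls of a higher effect value at 15 days; same-numbered BAP+IAA and Mock libraries deviated together with r from -0.0144 to 0.203, over 0.1 in 5 of 9 pairs where all 9 were required, so the number was not taken to pair samples, although 8 of 9 combination libraries correlated best with their own number, a hint from the data and not the design. Depth limits levels near 0 CPM, and 10 members had at least 1 IAA library without a read.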
